A study of Homo sapiens with 7 samples.

Results

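The 42 genes described here encode the folding, translocation and degradation machinery of the endoplasmic reticulum (ER). They were taken by gene name, whatever their signal, and fall into 19 chaperones and folding enzymes, 5 stress sensors and regulators, 9 translocon genes and 9 degradation genes. All 42 names were found among the 36337 gene names on the array, on 57 probes that fill 75 spots of each array.

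Proteins that enter the secretory pathway are threaded into the ER through the Sec61 channel, folded there by Hsp70 and Hsp90 chaperones, lectin chaperones and disulfide isomerases, and pulled back to the cytosol for proteasomal degradation when folding fails. When unfolded proteins build up, the sensors IRE1 (gene ERN1), PERK (gene EIF2AK3) and ATF6 switch on the unfolded protein response, in which spliced XBP1 and cleaved ATF6 bind short promoter elements and raise transcription of chaperone and degradation genes. Colon epithelial cells secrete mucins and display many membrane proteins, and carry this machinery at all times.

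The cells were HCT116, an established human colon carcinoma line labelled diploid, in the derivative that expresses histone H2B fused to GFP. The only group measured here was treated with 10 nM bafilomycin, for 30 h, with 4 replicates on 4 arrays. Bafilomycin A1 inhibits the vacuolar proton pump, so that lysosomes no longer acidify and autophagy stalls at its last step. The study asked whether the expression response to bafilomycin resembles that of aneuploid cells, but the 3 untreated samples of the same line were not analysed here, so no value below is a response to the drug and no test between groups was made. The labels do not say whether the 4 replicates were separate cultures, and the spread between them may be partly technical. All 4 arrays lay on 1 slide. A level is the log2 background-subtracted signal minus the median of its array, called the normalized log2 signal, and a deviation is that level minus the mean of the same gene over the 4 arrays. Probes differ in how well they bind, so levels were compared between arrays for 1 gene and never between genes. With 4 arrays, the precision of every mean is limited by their number.

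Of 10 epithelial colon markers, 8 were detected on all 4 arrays, namely EPCAM, CDH1, KRT8, KRT18, KRT19, KRT20, CDX1 and CDX2, while neither VIL1 nor CEACAM5 rose well above background anywhere. Of 10 markers of other cells, 6 were also detected, with normalized log2 signals that averaged from -2.07 for PTPRC to 5.73 for CD79A, and PECAM1 and COL3A1 rose well above it nowhere. Replicate 3 had 2249 outlying spots, against 514 to 725 on the other arrays. Whether this had a part in the member values was not tested, and the SD without replicate 3 is given for genes in which leaving it out lowered the SD by more than 1.5 times.

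The promoter elements of the unfolded protein response were looked for first, since they are the sequence feature by which these genes are known to be switched on together. RefSeq windows on GRCh38.p14, from 250 bases before to 50 bases after the transcription start, matched 39 of the 42 genes by symbol, and DERL1, DERL3 and PDIA3 were not matched. Both strands were searched for the exact letters of the ER stress response element ERSE, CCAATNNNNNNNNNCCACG, for ERSE-II, ATTGGNCCACG, and for the XBP1 element UPRE, TGACGTGG. ERSE was present in 7 of the 39 genes, beside 25 of all 27305 genes with a window (0.0916%). ERSE-II was present in 3 of the 39, beside 19 of all genes (0.0696%). UPRE was present in 5 of the 39, beside 253 of all genes (0.927%). A match is a run of letters and not a shown binding site. The elements were chosen because they are already known in genes of this kind, so these shares are a description and not a test.

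The ERSE and ERSE-II stretches are printed because they are the letters through which this response is known to act: 8 of the 18 chaperone genes with a window held one or the other, as did XBP1 and HERPUD1, and none of the 9 translocon genes did. Each is read 5′ to 3′ on the strand given, with the fixed letters of the element in capitals.
HSPA5 ERSE, chr9:125241385-125241414, minus strand: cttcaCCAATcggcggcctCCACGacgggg
HSP90B1 ERSE, chr12:103930211-103930240, plus strand: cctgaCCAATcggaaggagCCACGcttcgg
HSP90B1 ERSE, chr12:103930316-103930345, minus strand: aacccaCCAATcgcgccgcaCCACGcaccc
CALR ERSE, chr19:12938379-12938408, minus strand: caccgaCCAATgatggtcgaCCACGcgtgg
CANX ERSE, chr5:179698773-179698802, plus strand: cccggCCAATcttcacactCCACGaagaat
PDIA6 ERSE, chr2:10812847-10812876, minus strand: ccggaCCAATgagccgcagCCACGgcttgg
CRELD2 ERSE, chr22:49918549-49918578, minus strand: tatggcCCAATccgagttcgCCACGagagg
XBP1 ERSE, chr22:28800597-28800626, minus strand: gctggCCAATcgcggagggCCACGaccgta
HYOU1 ERSE-II, chr11:119057264-119057293, plus strand: gcgcgtactcATTGGaCCACGtcccaggcc
HYOU1 ERSE-II, chr11:119057370-119057399, plus strand: tcggcctgggATTGGaCCACGtcacggggc
SDF2L1 ERSE-II, chr22:21642105-21642134, minus strand: gagggttttgATTGGtCCACGcttccgagg
HERPUD1 ERSE-II, chr16:56932016-56932045, plus strand: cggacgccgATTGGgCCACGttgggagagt

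The elements lay between 52 bases (XBP1) and 225 bases (CALR) before the start, with 2 copies each in HSP90B1 and HYOU1. CANX has 3 annotated starts, and its single element lay 9 to 189 bases before them. UPRE letters were found in HYOU1, where they overlap the more distant ERSE-II, in TXNDC5, and in the translocon genes SEC62, SSR3 and SSR4. So the translocon genes with a match held UPRE alone, and HYOU1 was the one gene with both kinds. All 10 genes with ERSE or ERSE-II were detected on the 4 arrays. With the same probes on every array, 4 of these 10 spanned more than 1.4-fold, against 11 of the 25 detected members with a window and neither element. Over all detected genes the share was 42.9%. The median SD was 0.153 against 0.207, beside 0.199 over all detected genes. No test was made between these groups of genes.

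Of the 42 genes, 38 were detected on all 4 arrays, meaning that at least 1 probe was well above background on each, whereas 52.5% of all gene names on the array were. Detected were 18 of 19 chaperones and folding enzymes, 3 of 5 sensors and regulators, 8 of 9 translocon genes and 9 of 9 degradation genes. The 4 members that missed the rule did so for different reasons: the signals of ERP44, ERN1 and SEC62 lay near background, and EIF2AK3 lost its spot on 1 array. The median SD of the 38 genes over the 4 arrays was 0.223 on the log2 scale, beside 0.208 over all detected genes. The highest array exceeded the lowest by more than 1.4-fold, the threshold used in the study, in 20 of 38 genes, beside 46.4% of all detected genes. This count fell to 17, beside 42.9%, when the same probes were used on every array. It fell to 9, beside 15.5%, after normexp background correction and quantile normalization of all probes. Those 9 include P4HB (2.41-fold) and TXNDC5 (2.40-fold), each with 1 of 2 probes left out on replicate 3. With all probes that have a value but without replicate 3, the count was 4. A span over fewer arrays cannot be larger, and the share of all detected genes without replicate 3 was not counted.

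**Figure D1:**
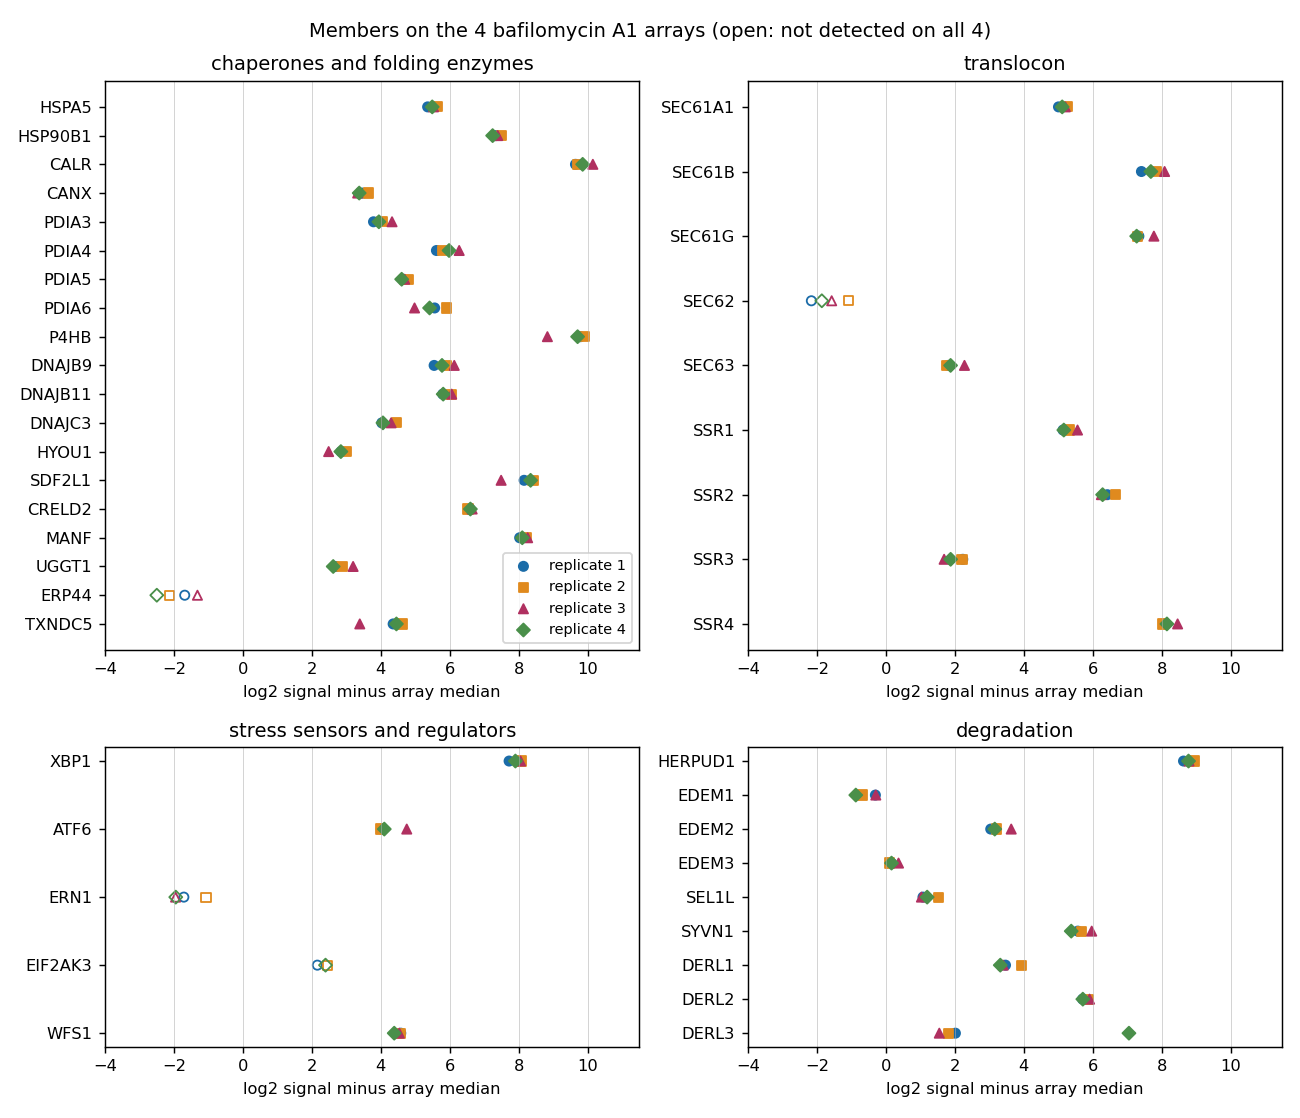
Normalized log2 signal (horizontal axis, log2 signal minus array median) of the 42 genes in each of the 4 bafilomycin arrays, 1 symbol per replicate, by class. Open symbols are genes not detected on all 4 arrays. ERP44, ERN1 and SEC62 lie at the low end, and DERL3 has replicate 4 at 7.05 and the other arrays between 1.55 and 2.02, a gap that comes from a probe without a value on replicate 4.

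Of the Hsp70 and Hsp90 chaperones, HSPA5 and HSP90B1 stayed under a 1.4-fold span and HYOU1 passed it. HSPA5, the Hsp70 of the ER known as BiP, read 5.36, 5.65, 5.53 and 5.49 on replicates 1 to 4 (mean 5.51 ± 0.12, SD, n = 4) on a probe at GRCh37 chr9:127997149-127997208. HSP90B1, the ER Hsp90 known as GRP94, read 7.34, 7.49, 7.39 and 7.24 (7.37 ± 0.10). These arrays spanned 1.22-fold for HSPA5 and 1.19-fold for HSP90B1, and both were also under 1.4-fold after quantile normalization. The 2 HSP90B1 probes went opposite ways on replicate 3, with deviations of 0.13 and -0.08, and the second spanned 1.35-fold alone. HYOU1, the large Hsp70-related exchange factor of BiP, read 2.85, 3.02, 2.49 and 2.84 (2.80 ± 0.22), with replicate 3 the lowest and a span of 1.44-fold, and its SD without replicate 3 was 0.0986.

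DNAJB9, DNAJB11 and DNAJC3 are soluble J-domain cofactors that pass clients to BiP, and each had replicate 1 as its lowest array. DNAJB9, known as ERdj4, read 5.55, 5.91, 6.13 and 5.77 (5.84 ± 0.24), with replicate 3 highest and a span above 1.4-fold. DNAJB11, known as ERdj3, stayed within 5.80 to 6.05. DNAJC3, known as p58IPK, read 4.03, 4.47, 4.30 and 4.06 (4.21 ± 0.21). A second DNAJC3 probe, designed on a separate cDNA clone at chr13:96395088-96395147, had a background-subtracted signal below 0 on all 4 arrays, from -3.65 to -0.429, and entered no value. SDF2L1, which binds ERdj3, read 8.16, 8.41, 7.49 and 8.34 (8.10 ± 0.42). Its replicate 3 lay under all the other arrays, and the 1.90-fold span rose to 2.17-fold after quantile normalization. Its SD was 0.133 without replicate 3.

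The lectin chaperones hold glycoproteins in the ER until they fold. CALR (calreticulin) read 9.65, 9.71, 10.15 and 9.85 (9.84 ± 0.22), with replicate 3 highest and a span of 1.42-fold. CANX (calnexin), its membrane-bound counterpart, read 3.47, 3.64, 3.33 and 3.37 (3.45 ± 0.14), with replicate 3 lowest. UGGT1, the glucosyltransferase that marks misfolded glycoproteins for another round, read 2.69, 2.87, 3.20 and 2.62 (2.84 ± 0.26). The values of the 3 genes of this cycle thus did not share an order of arrays, but the CANX probes disagreed. The probe at chr5:179158058-179158117 read 1.87, 2.09, 2.11 and 1.92, highest on replicate 3 as CALR and UGGT1 were. The probe at chr5:179137006-179137065 read 5.07, 5.19, 4.55 and 4.83, lowest there. The SD of CALR was 0.107 and that of UGGT1 0.131 without replicate 3.

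Disulfide isomerases form and reshuffle cysteine bonds, and they did not share an order of arrays. PDIA6 read 5.56, 5.91, 4.98 and 5.41 (5.47 ± 0.39), a 1.91-fold span with replicate 3 lowest. PDIA4 read 5.61, 5.80, 6.27 and 5.98 (5.92 ± 0.28), a 1.58-fold span with replicate 3 highest. PDIA3, the isomerase that works with calnexin and calreticulin, also had its highest array in replicate 3, at 3.79, 4.04, 4.33 and 3.94 (4.02 ± 0.23). So the direction on replicate 3 was opposite between PDIA6 and the other pair. Without replicate 3 the SD was 0.256 for PDIA6, 0.183 for PDIA4 and 0.125 for PDIA3. PDIA5 ranged from 4.60 to 4.80 as the median of 2 probes that went opposite ways on replicate 3 and spanned 1.399-fold and 1.503-fold alone. CRELD2, an ER protein induced by stress, ranged from 6.53 to 6.65, the smallest SD of the detected members (0.05). MANF, a secreted stress-induced factor, ranged from 8.03 to 8.26.

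Both P4HB (protein disulfide isomerase itself) and TXNDC5 (ERp46) had 1 of their 2 probes left out on replicate 3, which lowered their values there. P4HB read 9.79, 9.90, 8.83 and 9.71, a 2.10-fold span, and TXNDC5 read 4.36, 4.64, 3.39 and 4.45, a 2.38-fold span. In each, the scanner software marked the local background of 1 spot on replicate 3 as outlying, not the spot itself. With the remaining probe alone on every array the spans were 1.37-fold for P4HB and 1.35-fold for TXNDC5. On it P4HB still read lowest on replicate 3, at 8.83 against 8.95 to 9.28, and TXNDC5 read lowest on replicate 4. That P4HB probe is printed as 10 spots, with an SD within an array of 0.0818 to 0.141 and an SD between arrays of 0.201. With the marked spot kept, the left-out TXNDC5 probe read 5.37, 5.64, 6.48 and 5.70 and the left-out P4HB probe 10.43, 10.52, 10.66 and 10.47, with replicate 3 highest in both. Without replicate 3 the SD was 0.0970 for P4HB and 0.144 for TXNDC5. ERP44, which retrieves clients from the Golgi, read -1.69, -2.12, -1.32 and -2.50 and was well above background on replicates 1 and 3 only.

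The sensors and regulators were the class with the fewest detected genes. Of the sensors ATF6, ERN1 and EIF2AK3, only ATF6 was detected on all 4 arrays. ATF6, the sensor that is cut in the Golgi to release a transcription factor, read 4.01, 4.00, 4.75 and 4.10 (4.22 ± 0.36), a span of 1.69-fold. Replicate 3 lay apart from the other arrays, and after quantile normalization the span was 1.51-fold. Without replicate 3 its SD was 0.0563. ERN1 read -1.71, -1.07, -1.95 and -1.95 and was well above background on replicates 1 and 2 only, so its order over the arrays carries no weight. EIF2AK3 read 2.16, 2.45 and 2.40 on replicates 1, 2 and 4. Its spot on replicate 3 was left out for an outlying local background, and read 3.36 when kept, above the other arrays.

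XBP1, the transcription factor whose messenger RNA is spliced by IRE1, read 7.72, 8.09, 8.05 and 7.90 (7.94 ± 0.17). Its probe at chr22:29190733-29190792 was printed as 10 spots, of which 8 to 10 were used. The SD of the spots within an array was 0.0459 to 0.191, and the SD between the array means was 0.168. The file assigns this probe to transcripts of both the spliced and the unspliced form, and the signal does not separate them. WFS1, an ER membrane protein that restrains ATF6, ranged from 4.39 to 4.58 (4.52 ± 0.09).

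Of the Sec61 channel genes, SEC61A1 and SEC61B lay on the same side of their own means on every array. SEC61G differed from them in sign on replicate 2 only, and each gene was read by 1 probe. SEC61A1, the pore subunit, ranged from 5.01 on replicate 1 to 5.26 on replicate 2 (5.15 ± 0.11), a span of 1.19-fold. SEC61B read 7.41, 7.85, 8.08 and 7.68 (7.76 ± 0.28), a span of 1.59-fold with replicate 1 lowest. SEC61G, the remaining subunit, read 7.34, 7.31, 7.77 and 7.27 (7.42 ± 0.23), with replicate 3 apart from the other arrays. After quantile normalization the 3 spans were 1.15-fold, 1.33-fold and 1.21-fold. SEC63, which recruits BiP to the channel, read 1.81, 1.77, 2.28 and 1.88 (1.93 ± 0.23), again with replicate 3 highest. Without replicate 3 the SD was 0.0318 for SEC61G and 0.0528 for SEC63. SEC62, its partner in post-translational import, had background-subtracted signals of 17.2, 33.3, 23.6 and 17.5 and was well above background on replicates 2 and 3 only.

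SSR1 to SSR4 encode the translocon-associated protein complex, which helps some signal sequences enter the channel. SSR1 read 5.14, 5.31, 5.56 and 5.16 (SD 0.19) and SSR4 read 8.11, 8.02, 8.46 and 8.15 (SD 0.19). SSR2 read 6.42, 6.66, 6.25 and 6.29 (SD 0.18) and SSR3 read 2.23, 2.21, 1.69 and 1.88 (SD 0.26). Replicate 3 was therefore the highest array for SSR1 and SSR4 and the lowest for SSR2 and SSR3. Quantile normalization took SSR1 from 1.34-fold to 1.10-fold and SSR4 from 1.36-fold to 1.22-fold, but raised SSR2 from 1.33-fold to 1.49-fold and left SSR3 at 1.46-fold. Without replicate 3 the SD was 0.0963 for SSR1 and 0.0674 for SSR4.

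The degradation genes were all detected. HERPUD1, a membrane component of the ubiquitin ligase complex and a known target of the unfolded protein response, read 8.63, 8.96, 8.79 and 8.78 (8.79 ± 0.13). SYVN1, the ligase Hrd1, read 5.56, 5.67, 5.97 and 5.38 (5.64 ± 0.25), a span of 1.51-fold with replicate 3 highest. SEL1L, which pairs with Hrd1, ranged from 1.03 on replicate 3 to 1.51 on replicate 2, with an SD of 0.22 and a span just under 1.4-fold. That value is the median of 3 probes, of which 1 was well above background on no array. The detected probes read 3.09, 3.01, 3.29 and 3.05, with replicate 3 highest, and 1.08, 1.51, 1.03 and 1.20, with replicate 2 highest. On these 2 probes alone the SD of SEL1L was 0.0785. SYVN1 had an SD of 0.149 without replicate 3.

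The mannosidase-like EDEM proteins pick out misfolded glycoproteins. EDEM1 read -0.30, -0.67, -0.29 and -0.87 (-0.53 ± 0.28), its background-subtracted signal being 34.7 to 62.4 and well above background on all 4 arrays. EDEM2 read 3.04, 3.22, 3.63 and 3.16 (3.26 ± 0.26), and EDEM3 stayed within 0.10 to 0.37 (0.20 ± 0.12). That EDEM3 value is the middle of 3 detected probes, which disagreed. Its probe at chr1:184659958-184660017 read 4.09, 4.40, 4.77 and 4.34, a span of 1.60-fold with replicate 3 highest. Its probe at chr1:184663202-184663261 read -1.38, -1.03, -1.24 and -0.95, with replicate 4 highest. By the gene values, replicate 3 was the highest array for the 3 EDEM genes, though for EDEM1 it hardly differed from replicate 1. When replicate 3 was left out, the SD was 0.0893 for EDEM2 and 0.0356 for the gene value of EDEM3.

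The derlins form part of the exit channel in the ER membrane. DERL1 read 3.47, 3.92, 3.40 and 3.32 (3.53 ± 0.27), with replicate 2 highest, and DERL2 ranged from 5.70 to 5.91 (5.80 ± 0.11). DERL3 read 2.02, 1.81, 1.55 and 7.05, the widest span of any member (45.2-fold). Its probe at chr22:24176715-24176774 read 7.14, 6.99, 6.67 and 7.05 (6.96 ± 0.21). The other probe, at chr22:24177366-24177425, stayed near background on each array, with signals of 8.92, 6.72 and 5.92 on replicates 1 to 3 and -2.11 on replicate 4, where a log2 value could not be taken. The gene value of replicate 4 is then the brighter probe alone, and the span with that probe on every array was 1.39-fold.

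**Figure D2:**
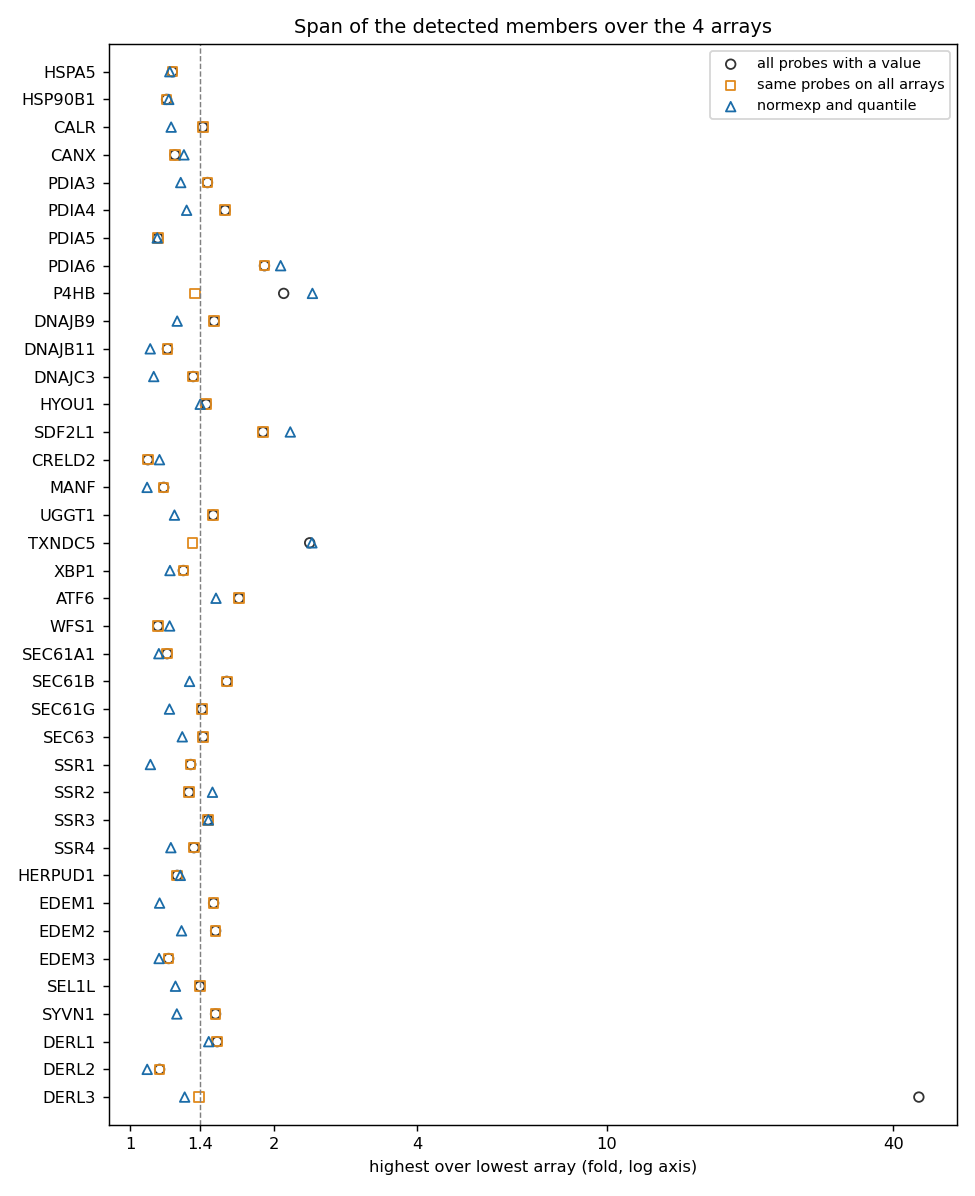
Highest over lowest array as a fold (horizontal log axis) for the 38 detected genes, with all probes that have a value, with the same probes on all arrays, and after normexp and quantile normalization. The dashed line is 1.4-fold. DERL3 falls from 45.2-fold to 1.39-fold with the same probes, and P4HB and TXNDC5 also fall under the line there. After quantile normalization of all probes, P4HB and TXNDC5 lie at 2.41-fold and 2.40-fold. PDIA6 and SDF2L1 stay near or above 1.9-fold in all 3.

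Because probe gaps moved whole genes, the order of the arrays was counted with the same probes on each. The highest array was replicate 3 in 19 of 38 genes (48.7% of all detected genes), replicate 2 in 17 (25.3%), replicate 1 in 2 (20.9%) and replicate 4 in 0 (5.17%). The lowest was replicate 1 in 15 of the 38 (26.6% of all detected genes), replicate 2 in 5 (14.4%), replicate 3 in 9 (23.4%) and replicate 4 in 9 (35.7%). On these probes the share of members highest on replicate 3 was thus near the background. That on replicate 2 was above it and that on replicate 1 below it. On the same probes, 28 of 38 genes (73.7%) lay above their own mean on replicate 2, beside 57.1% of all detected genes, and 10 of 38 (26.3%) on replicate 1, beside 45.1%. After quantile normalization the shares were 65.8% on replicate 2, beside 45.4%, and 47.4% on replicate 1, beside 51.2%. On replicate 3, 71.1% of members lay above their mean on the same probes, beside 62.9%, and 39.5% after quantile normalization, beside 50.7%. Replicate 3 was then the lowest array in 19 of 38 genes, beside 6497 of all 19083 detected genes. Genes are not independent, and these shares are descriptions of 4 arrays.

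By class, the mean deviation of the chaperones on the same probes was -0.09, 0.12, 0.02 and -0.05 on replicates 1 to 4, with 15 of 18 genes above their mean on replicate 2. The translocon genes averaged -0.09, 0.03, 0.14 and -0.09, and the degradation genes -0.04, 0.08, 0.07 and -0.11. The 3 detected sensors and regulators, ATF6, XBP1 and WFS1, averaged -0.12, -0.00, 0.22 and -0.10. All detected genes on the array averaged -0.00, 0.04, 0.06 and -0.10, and the degradation means lay near these. The direction of the chaperones on replicate 3 depended on the probes used and on the normalization. With all probes that have a value, their mean deviation there was -0.06, the median 0.04, and 12 of 18 genes lay above their mean. After normexp and quantile normalization of all probes, the mean was -0.20, the median -0.11, and 5 of 18 genes lay above. The same P4HB and TXNDC5 spots were left out on replicate 3 in both. Over all detected genes the mean deviation on replicate 3 was 0.07 with all probes that have a value and -0.01 after quantile normalization. Dixon's ratio set 1 array apart in 3 of 38 genes, beside 8.48% of all detected genes.

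**Figure D3:**
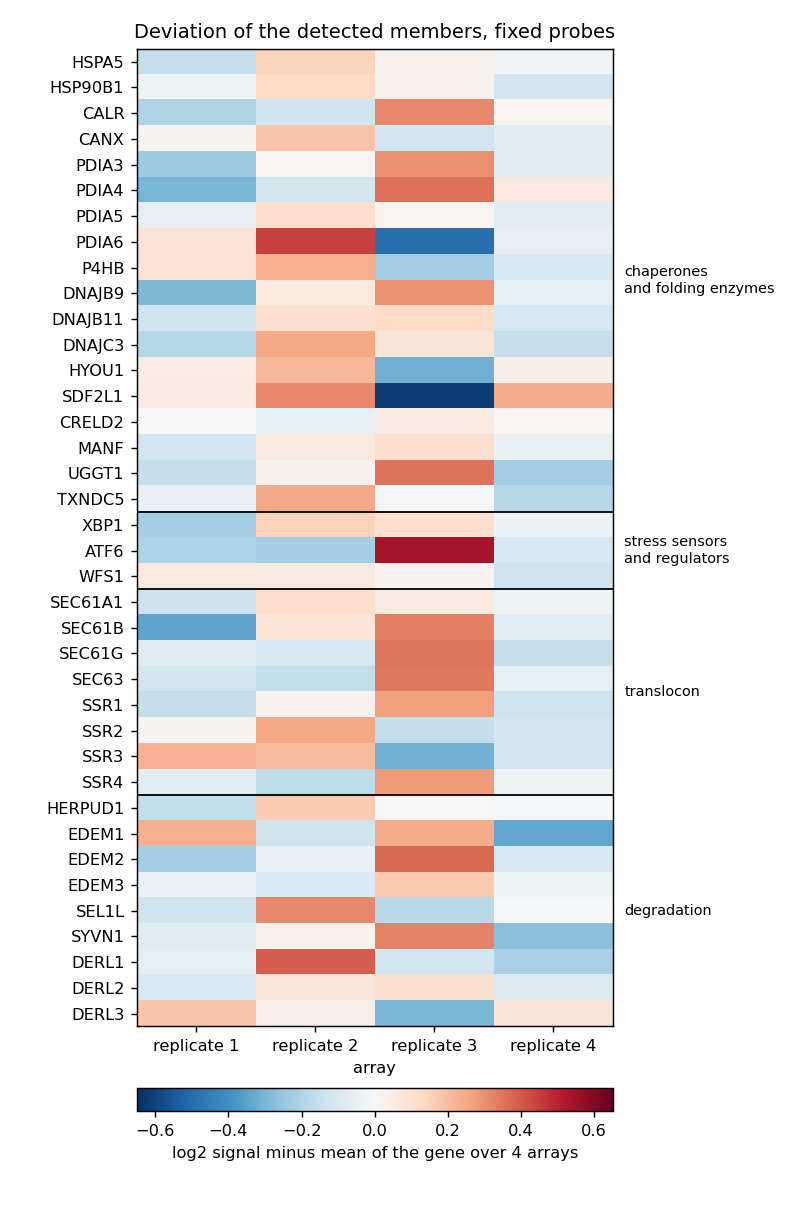
Deviation of each of the 38 detected genes on each array (colour, log2 signal minus the mean of the gene over the 4 arrays), with the same probes on every array and lines between the classes. Replicate 2 is mostly red among the chaperones (15 of 18 above the mean), and replicate 3 holds both the strongest red (ATF6) and the strongest blue (SDF2L1). The chaperone mean on replicate 3, 0.02 here, is -0.06 with all probes that have a value and -0.20 after normexp and quantile normalization.

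For 8 members, several probes of the gene were detected on all 4 arrays, and they give a second reading of the same RNA. On replicate 3 the probes of 5 of these 8 genes lay on both sides of their own means, beside 46.3% of 4180 genes with several detected probes. The median gap between probes there was 0.389, beside 0.275. The PDIA5 probe at chr3:122880268-122880751, which crosses an exon junction, deviated by 0.31 on replicate 3, and the one at chr3:122821281-122821340 by -0.29. Both have 41.7% GC. The CANX probe at chr5:179158058-179158117 deviated by 0.11 and that at chr5:179137006-179137065 by -0.36. The 2 SEC63 probes and the 3 SSR1 probes, by contrast, were above their means on replicate 3 without exception. Over the 48 member probes detected on every array, GC content and the deviation on replicate 3 had a Spearman correlation of -0.37, and over all 24633 such probes it was -0.44. Probes of 1 gene share RNA and array, so this is a description, and the part of GC content in the deviations was not tested.

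**Figure D4:**
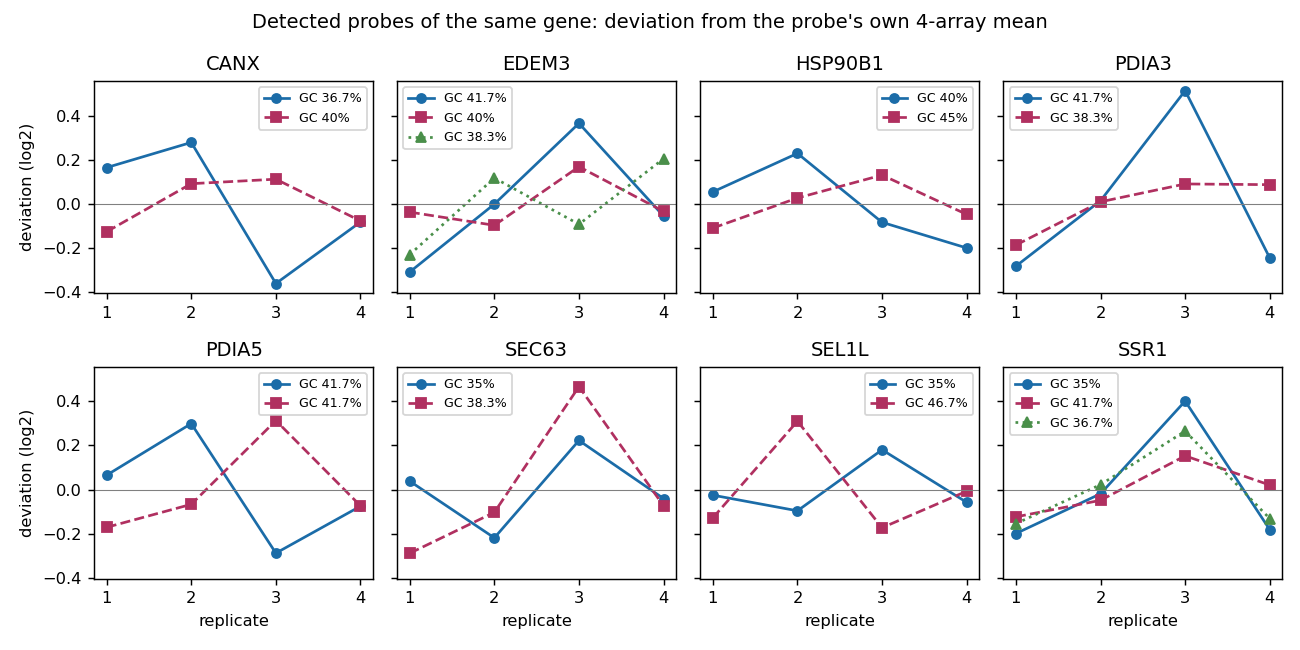
Deviation of each detected probe from its own mean over the 4 arrays (vertical axis, log2) by replicate (horizontal axis), for the 8 genes with several detected probes, 1 line per probe labelled with its GC content. The PDIA5 and CANX probes part on replicate 3, at 0.31 and -0.29 and at 0.11 and -0.36, while the 3 SSR1 probes lie above their means on replicate 3 and part in sign on replicates 2 and 4.

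Of 89 further genes of these pathways, 82 were detected on all 4 arrays, beside 52.5% of all gene names. Of the 82, 29 spanned more than 1.4-fold, beside 46.4% of all detected genes. The median SD was 0.192, beside 0.208. Spans over 1.4-fold were found in 6 of 13 detected folding genes, 11 of 26 in translocation and glycosylation, 5 of 21 in degradation, 5 of 15 in stress signalling and 2 of 7 in retrieval. ATF6B, the paralogue of ATF6, had the largest SD of the 82 detected, at -0.76, 0.39, 1.94 and -0.54 (0.26 ± 1.23), and replicate 3 was its highest array, as it was for ATF6. CALU (calumenin), a calcium-binding protein of the ER, read 4.22, 4.23, 5.38 and 4.57, also highest on replicate 3. PRDX4, an ER peroxidase, read -2.86, -2.66, -1.70 and -1.92. TUSC3, a subunit of the oligosaccharyltransferase, was the 1 gene of the 89 that no array showed well above background.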

How the data were processed

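The authors deposited 1 Feature Extraction 10.7.3.1 scanner file per array, with intensity values that are background-subtracted and not normalized between arrays. Each deposited file adds, per spot, flags and a p-value against background, and probe coordinates on GRCh37. No spot was saturated. Here, control and outlying spots were dropped, spots of a probe averaged, signals at or below 0 left out on that array, log2 values taken and the array median subtracted, and the median over probes of a gene taken; the study's methods use that signal, centring and median over probes. A probe was detected where over 50% of its spots were well above background. Genes named are the 42 members, and of the 89 pathway genes those well above background on no array and the 3 detected ones with the largest SD. Members and lists were chosen with earlier results of these data known.

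Alternatives were the software's processed signal minus each array's 75th percentile, normexp (offset 50) with quantile normalization in limma 3.58.1, other probe, outlier and detection rules and leaving out each array. The use of spot flags alone was added after seeing the data. Dixon's ratio used 0.829. No other test was made, since 1 group was measured. Promoter windows are RefSeq's on GRCh38.p14; ER retrieval signals in proteins were not analysed here. The statistics were tested on simulated data. Python 3.11.15, numpy 2.4.6, pandas 2.3.3, matplotlib 3.10.9 and R 4.3.3 were used.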

Additional observations from a re-analysis of the deposited data

Results flagged for a closer look

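Dixon's ratio was applied to 42 values, the 38 detected genes and the 4 class means. It set an array apart in 3 of them, where chance gives about 5%. Over all detected genes on these arrays the share was 8.48%. ATF6 read 4.75 on replicate 3, above 4.00 to 4.10 on the other arrays. SEC61G read 7.77 on replicate 3, above 7.27 to 7.34. DERL3 read 7.05 on replicate 4, above 1.55 to 2.02, and with the same probe on every array that value lay within 6.67 to 7.14.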

How the results depend on the processing

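No paired analysis was possible because the untreated samples that share replicate numbers with the treated ones were not analysed here and no test between groups was made. Detection held within 33 to 41 members under other detection rules, and was 38 or 39 with outlying spots kept or an array left out. In the counts and SDs below, sensors stands for the whole class of sensors and regulators. The software's processed signal minus each array's 75th percentile gave 3 degradation genes over 1.4-fold (main value 5) and SDs of the class mean of 0.0555 for the translocon (0.111) and 0.0222 for degradation (0.220). After normexp and quantile normalization the count over 1.4-fold was 9 members, 5 chaperones, 2 translocon genes and 1 degradation gene, the median SD was 0.141, and the SD of the class mean was 0.139 for chaperones (0.0971), 0.0406 for sensors (0.156), 0.0114 for the translocon and 0.0385 for degradation. Those 9 members and 5 chaperones include P4HB and TXNDC5, whose probe gap on replicate 3 also enters the chaperone SD of 0.139. With only probes well above background on all arrays the degradation SD was 0.0913. With the same probes on every array it was 0.0911, the DERL3 gap being absent in both. With outlying spots kept, 2 sensors were over 1.4-fold and the sensor SD was 0.250; with spot flags alone, an alternative chosen after seeing the data, these were 2 and 0.248, EIF2AK3 being counted in both. Leaving out each array gave 4 to 17 members over 1.4-fold, a median SD of 0.133 to 0.234, 1 to 10 chaperones, 0 to 1 sensors, 0 to 3 translocon genes and 2 to 4 degradation genes, with SDs of the class mean of 0.0287 to 0.118 for chaperones, 0.0803 to 0.191 for sensors, 0.0684 to 0.134 for the translocon and 0.0655 to 0.264 for degradation. The lowest values came without replicate 3, except that the lowest chaperone SD came without replicate 2 and the lowest degradation count and SD without replicate 4; the chaperone count was also lower, at 6, without replicate 1, and the degradation count, at 3, without replicate 3. The shares of all detected genes with an array left out were not counted, and a span over fewer arrays cannot be larger. The cause was not tested where none is given. Of the 38 single genes, the SD was marked as moved in 16 after quantile normalization and in 20 without replicate 3. That mark also covers changes far smaller than the SD between arrays. Without replicate 3, the SD of DNAJB11 went from 0.140 to 0.134 and that of DERL2 from 0.108 to 0.100, and both were marked. Signal over background limits ERP44, ERN1 and SEC62, and PRDX4 of the further genes, whose differences between arrays cannot be read.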

Other observations

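Of the 89 further pathway genes, 73 have a promoter window. ERSE letters were found in 2 of them, ERO1B and SERP1, and ERSE-II letters in 0. UPRE letters were found in 6, namely DNAJC10, KDELR3, SRP19, TXNDC11, UBE2J1 and VCP.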
